A study of Mus musculus with 20 samples.

Results

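The 36 genes described here encode the factors and enzymes with which a cell makes sterols and fatty acids, and they were taken by name from a fixed list of gene symbols out of 56748 rows in each of 2 mouse gene count tables. All 36 were found once in each table and all 36 passed the filter on low counts, among 18691 genes tested in the first experiment and 19569 in the second. By role they are 5 transcription factors and sensors, 18 enzymes of the sterol branch, a sterol carrier and an oxysterol-forming enzyme, 9 genes of the fatty acid branch and 2 fatty acid activating enzymes. The list does not hold every gene of these pathways.

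The first experiment held 12 mRNA libraries in 4 groups of 3. They came from wildtype and iNOS KO macrophages, either left unstimulated or stimulated for 48 h with 50 ng/mL LPS and 30 ng/mL IFNγ, which together drive classical activation. The labels name these cells bone marrow-derived macrophages (BMDM) of male or female C57BL/6J mice aged 6 to 12 weeks, cultured with M-CSF, whereas the study's text on its transcriptome describes RAW264.7 cells with the same genotypes, and the libraries are called BMDM-labelled below. The iNOS KO lacks inducible nitric oxide synthase (gene Nos2). If the cells are BMDM, the knockout is a mouse allele present in every cell, and the study pooled the marrow of its mice by genotype. The 3 libraries of a group then need not stand for 3 animals. If they are RAW264.7, the knockout is that of a cell line and no separate animals stand behind the libraries. The second experiment held 8 libraries in 4 groups of 2 from RAW264.7, a mouse macrophage line, wildtype or with Akr1a1 knocked out by CRISPR-Cas9 and grown from single cells, unstimulated or stimulated for 48 h with IFNγ at 10 ng/mL and LPS at 50 ng/mL. The study's methods describe the 2 replicates of each group as independent clones, so differences between clones enter every comparison of these genotypes. Whether a replicate letter names the same clone in both states is not given. AKR1A1 is an aldo-keto reductase that also reduces S-nitroso-coenzyme A. Replicate B of both unstimulated RAW264.7 groups carries the word stimulated in its title but is unstimulated by its treatment field and library name, and was used as unstimulated.

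Cholesterol synthesis starts from acetyl-CoA and runs through mevalonate and squalene to the sterol ring, and its enzymes are switched on together by SREBP2, the product of Srebf2. SREBP1, from Srebf1, mainly drives the genes that build, elongate and desaturate fatty acids. Both factors are carried by SCAP to the Golgi for cleavage when sterols are scarce and are held in the endoplasmic reticulum by INSIG1 and INSIG2 when sterols are plentiful. In macrophages the pathway is known for its link to inflammatory activation, and 25-hydroxycholesterol, made by CH25H, blocks SREBP cleavage.

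The BMDM-labelled libraries held 15072109 to 18878107 counts each and the RAW264.7 libraries 11876719 to 44583327. Nos2 stood at 10370 to 11530 CPM (counts scaled to a normalised library of 1e+06 counts) in the stimulated wildtype BMDM-labelled libraries and at 870.5 to 912 CPM in stimulated iNOS KO, where reads of the gene were still counted, and it had 0 counts in all 3 unstimulated iNOS KO libraries. Akr1a1 was lower in the Akr1a1 KO libraries than in wildtype RAW264.7 (212 to 370 against 576 to 675 CPM when stimulated, 21.9 to 206 against 427 to 488 CPM when not), a difference that did not pass the test when stimulated (log2 fold change -1.10 ± 0.77 SE, adjusted p = 0.64) or unstimulated (-2.01 ± 0.80 SE, adjusted p = 0.56). Of 10 macrophage markers, 6 or 7 exceeded a mean of 10 CPM in every group, while C1qa and C1qb had 0 counts in both unstimulated BMDM-labelled groups. The summed level of 8 neutrophil markers was 0.433 to 1.17 CPM without stimulation and 35.7 to 62.1 CPM with it in the BMDM-labelled cells, where 3 to 5 of them had 0 counts in a whole group, and that of 6 fibroblast markers reached at most 16.6 CPM. Their part in the results below was not tested. Replicates differed by more than counting noise (chi-square over genes per degree of freedom). The ratio was 2.65 to 7.74 for the BMDM-labelled pairs other than replicate B of stimulated iNOS KO against replicates A and C, where it was 28.8 and 36.8. It was 15.5 to 68.6 for the RAW264.7 pairs, highest between the 2 stimulated wildtype libraries.

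To show the regulatory sequence at the starts of these genes, the RefSeq promoter windows of the GRCm38.p6 assembly (250 bases before to 50 after a listed start, which makes 300 bases) were searched on both strands for the core of a sterol regulatory element, TCACNCCAC, to which SREBPs bind, and for the CCAAT box, CCAAT, to which the partner factor NF-Y binds. Windows were found for 29 of the 36 genes. The CCAAT box was present in 23 of the 29 (79.3%), against 41.1% of all 27025 genes with a window. Among the sterol enzymes it was present in 14 of 15 (93.3%), and among the fatty acid synthesis, elongation and desaturation genes in 3 of 6. The sterol element core was present in 2 of the 29, Hmgcs1 and a second start of Acsl1, against 1.44% of all genes. No match of one motif overlapped a match of the other in these windows. A match to these letters is a description of the window and not evidence of binding.

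5 windows are printed below because they belong to the genes on which the results turn: an early mevalonate enzyme with the element, a mevalonate enzyme with 1 of the largest responses, the fatty acid synthase, and the INSIG pair, whose transcripts moved in opposite directions in wildtype cells. Capitals mark the sterol element core and each CCAAT box, written as ATTGG where it lies on the other strand. Sequences run 5′ to 3′ on the strand of the gene.
Hmgcs1 (chr13:119690101-119690400, + strand): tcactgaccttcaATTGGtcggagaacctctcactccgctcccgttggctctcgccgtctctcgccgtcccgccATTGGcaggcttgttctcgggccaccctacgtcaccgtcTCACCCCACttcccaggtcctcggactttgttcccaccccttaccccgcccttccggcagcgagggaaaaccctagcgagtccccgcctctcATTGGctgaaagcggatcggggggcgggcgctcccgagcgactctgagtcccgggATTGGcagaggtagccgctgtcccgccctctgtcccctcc
Idi1 (chr13:8885356-8885655, + strand): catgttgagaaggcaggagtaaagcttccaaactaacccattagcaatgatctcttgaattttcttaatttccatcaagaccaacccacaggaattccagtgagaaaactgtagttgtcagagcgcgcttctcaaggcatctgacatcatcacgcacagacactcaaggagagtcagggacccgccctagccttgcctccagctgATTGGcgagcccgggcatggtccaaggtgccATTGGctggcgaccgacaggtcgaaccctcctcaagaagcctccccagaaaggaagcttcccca
Fasn (chr11:120824498-120824797, - strand): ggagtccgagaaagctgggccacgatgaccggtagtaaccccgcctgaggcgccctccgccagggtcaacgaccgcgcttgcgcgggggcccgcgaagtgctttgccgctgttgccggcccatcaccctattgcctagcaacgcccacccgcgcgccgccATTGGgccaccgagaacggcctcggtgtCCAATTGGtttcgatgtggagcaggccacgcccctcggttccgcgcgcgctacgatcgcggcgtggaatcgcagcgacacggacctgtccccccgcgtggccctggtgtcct
Insig1 (chr5:28071162-28071461, + strand): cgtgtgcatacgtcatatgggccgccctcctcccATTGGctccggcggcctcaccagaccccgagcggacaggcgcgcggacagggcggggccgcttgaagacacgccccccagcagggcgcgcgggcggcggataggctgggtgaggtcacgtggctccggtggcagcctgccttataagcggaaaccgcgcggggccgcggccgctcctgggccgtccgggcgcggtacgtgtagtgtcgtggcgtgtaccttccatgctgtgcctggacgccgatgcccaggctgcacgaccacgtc
Insig2, the most upstream of 3 listed starts (chr1:121332540-121332839, - strand): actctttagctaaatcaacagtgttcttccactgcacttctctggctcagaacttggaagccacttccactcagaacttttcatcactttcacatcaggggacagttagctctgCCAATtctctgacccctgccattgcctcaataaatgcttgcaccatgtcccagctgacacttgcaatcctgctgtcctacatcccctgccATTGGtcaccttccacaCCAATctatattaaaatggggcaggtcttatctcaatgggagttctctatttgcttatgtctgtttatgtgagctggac
The Hmgcs1 window held the sterol element core and 4 CCAAT boxes. Fasn held 3, of which a pair overlapped on opposite strands, Idi1 held 2 and Insig1 held 1. The upstream Insig2 window held 3, and the other 2 Insig2 windows held none.

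Stimulation lowered nearly the whole set in wildtype BMDM-labelled cells and lowered it less in iNOS KO cells. Together the 36 genes took 0.651 to 0.659% of all raw counts, before normalisation, in the unstimulated wildtype libraries and 0.167 to 0.173% after stimulation. In iNOS KO libraries they took 0.606 to 0.628% before and 0.302 to 0.329% after. The 2 stimulated genotypes did not overlap, and neither overlapped the unstimulated range. In bulk RNA, fewer cells that express a gene and less RNA of it per cell cannot be told apart.

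In wildtype BMDM-labelled cells, 32 of the 36 genes fell on stimulation, 3 rose and 1, Ebp, did not pass the test (edgeR quasi-likelihood test with Benjamini-Hochberg adjustment over all 18691 genes, adjusted p under 0.05). Over all genes tested, 28.5% were called lower and 32.4% higher. The median log2 fold change of the set was -1.497, against 0.07 over all genes. In iNOS KO cells 28 fell, 4 rose and 4 did not pass, where 24.6% of all genes were called lower and 27.3% higher, and the median was -0.56 against 0.00. The 28 that fell in iNOS KO were all among the 32 that fell in wildtype.

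The genotypes were then compared directly. Among stimulated libraries, 31 of the 36 genes were higher in iNOS KO than in wildtype and 1, Insig2, was lower, where 24.2% of all genes were called higher and 24.2% lower, and the median log2 difference of the set was 0.97 against -0.04. Of these, 17 that were higher and the 1 that was lower also differed by more than 1 on the log2 scale, a limit for which the share of all genes was not counted. Mvd, Tm7sf2, Elovl1 and Acsl3 did not pass. The response to stimulation itself differed between genotypes (the interaction term of the same fit) for 31 genes. It was more positive in iNOS KO for 30 and less positive for 1, where 20.0% of all genes were called in the first direction and 15.4% in the second, and the median was 1.17 against -0.02. Scap, Mvd, Tm7sf2 and Acsl3 did not pass, and Ch25h, whose interaction cannot be estimated, was counted as not called. Without replicate B of stimulated iNOS KO, the library that stood apart from its group, the stimulated genotypes differed for 32 genes (30 up and 2 down in iNOS KO), 28 fell and 4 rose in iNOS KO, and the interaction was called for 31. Of all genes, 50.9%, 53.2% and 40.4% were called in these comparisons without that library. Of the 32 genes that fell in wildtype, 28 had a response that was more positive in iNOS KO.

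**Figure D1:**
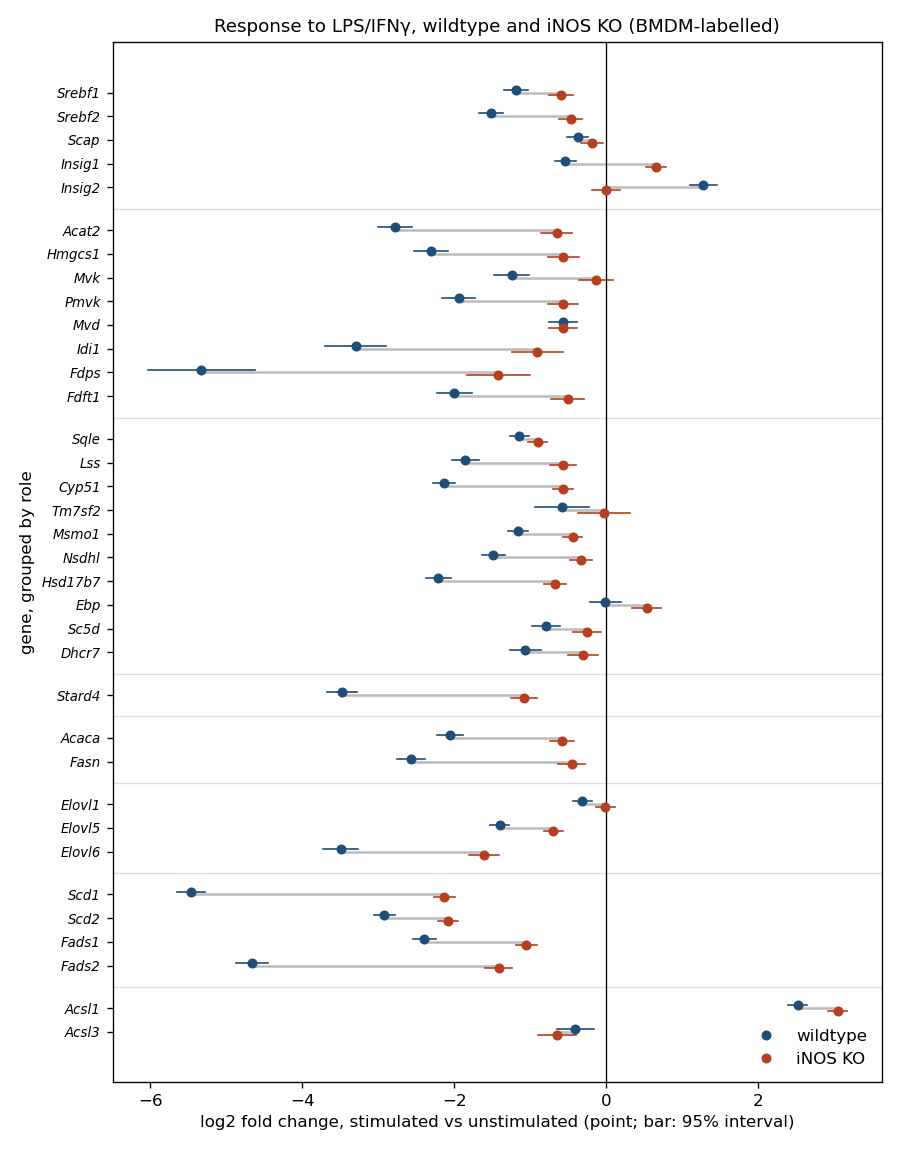
Log2 fold change of stimulated against unstimulated libraries (x axis) for 35 genes grouped by role (y axis), in wildtype (blue) and iNOS KO (red) BMDM-labelled cells, each from 3 against 3 libraries, with 95% intervals. Most red points lie to the right of the blue ones, Insig2 and Acsl3 lie to the left, and Ch25h is not drawn because it had 0 counts in every unstimulated library.

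Among the factors and sensors, the level of Srebf2 followed the set. It stood at 393, 383 and 415 CPM in the unstimulated wildtype libraries and at 132, 149.8 and 137 CPM after stimulation. With iNOS KO it stood at 351, 397 and 374 CPM and then at 255, 303 and 253 CPM. The 3 stimulated wildtype libraries were the lowest of the 12 and the 3 stimulated iNOS KO libraries lay between them and the unstimulated ones. The log2 fold change on stimulation was -1.51 ± 0.08 (SE, adjusted p = 3.5e-11) in wildtype and -0.47 ± 0.08 (SE, adjusted p = 8.2e-05) in iNOS KO, and the interaction was 1.04 ± 0.11 (SE, adjusted p = 1.2e-06).

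Srebf1 went from 212, 214 and 225 to 91.3, 98.2 and 96.99 CPM in wildtype. It went from 198, 207 and 205 to 129, 155 and 119.5 CPM in iNOS KO. All stimulated iNOS KO libraries again exceeded all stimulated wildtype libraries, with a log2 difference of 0.49 ± 0.08 (SE, adjusted p = 7.4e-05). The gene overlaps Rai1 on the opposite strand over 109 bases, and whether the counting used strand is not given in the sources used here. Scap, the escort of both factors, had the smallest wildtype change of the 5. It stood at 65.05, 60.8 and 66.1 CPM in unstimulated and 50.97, 47.8 and 49.1 CPM in stimulated wildtype libraries, a log2 fold change of -0.38 ± 0.07 (SE, adjusted p = 0.00024). Its level in iNOS KO was 63.1, 68.6 and 62.9 CPM before and 53.4, 60.2 and 57.3 CPM after stimulation (-0.19 ± 0.07 SE, adjusted p = 0.037), a call that was lost when any 1 of 6 libraries was left out and with the replicate letter as a block (adjusted p = 0.054).

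The INSIG pair moved in opposite directions in wildtype. Insig1, itself an SREBP target, stood at 165, 186 and 185 CPM in unstimulated wildtype libraries and fell to 124, 118 and 128 CPM. In iNOS KO it stood at 147, 136 and 146 CPM and rose to 219, 237 and 221 CPM. The 3 stimulated iNOS KO libraries were the highest of the 12 and the 3 stimulated wildtype libraries the lowest, and the response changed sign between genotypes, with log2 fold changes of -0.54 ± 0.07 (SE, adjusted p = 2.5e-06) in wildtype, 0.66 ± 0.07 (SE, adjusted p = 3.2e-07) in iNOS KO and an interaction of 1.19 ± 0.10 (SE, adjusted p = 3.7e-08). Insig2 stood at 18.1, 16.8 and 18.9 CPM in unstimulated wildtype and rose to 44.2, 43.3 and 43.2 CPM on stimulation. The iNOS KO libraries held it at 19.4, 19.4 and 16.9 CPM before and 19.8, 19.03 and 16.8 CPM after. Only the stimulated wildtype libraries of the 12 exceeded 20 CPM, and the other 9 overlapped. The wildtype rise was 1.28 ± 0.09 (SE, adjusted p = 1.3e-09) on the log2 scale, the 95% interval of the iNOS KO change was -0.18 to 0.18, and the interaction was -1.28 ± 0.13 (SE, adjusted p = 5.5e-07), the 1 negative call among the 36.

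The 8 enzymes from acetyl-CoA to squalene all fell in wildtype, with a median log2 fold change of -2.15, where 28.5% of all genes were called lower. With stimulation 7 of the 8 were higher in iNOS KO than in wildtype, where 24.2% of all genes were called higher. Hmgcs1, the synthase that makes HMG-CoA, stood at 94.8, 108 and 94.7 CPM in unstimulated and 23.6, 18.6 and 18.2 CPM in stimulated wildtype libraries. Its iNOS KO levels were 99.7, 93.5 and 103 CPM before stimulation and 70.1, 56.3 and 74.3 CPM after it. The 4 groups gave 3 separate levels, since only the unstimulated groups overlapped. The log2 fold changes were -2.30 ± 0.12 (SE, adjusted p = 1.7e-11) in wildtype and -0.56 ± 0.11 (SE, adjusted p = 0.00027) in iNOS KO, with an interaction of 1.74 ± 0.16 (SE, adjusted p = 1.5e-07).

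Idi1, the isomerase that makes dimethylallyl pyrophosphate, had the largest wildtype fall of the sterol enzymes after Fdps. It stood at 49.4, 55.1 and 51.2 CPM in unstimulated wildtype and at 5.47, 4.52 and 5.82 CPM after stimulation. With iNOS KO it stood at 57.97, 50.4 and 52.3 CPM and then at 32.7, 17.3 and 35.5 CPM. Replicate B of stimulated iNOS KO lay well under replicates A and C yet above every stimulated wildtype library. The log2 fold changes were -3.30 ± 0.21 (SE, adjusted p = 3.2e-10) and -0.90 ± 0.17 (SE, adjusted p = 0.00028), and the interaction was 2.39 ± 0.27 (SE, adjusted p = 2.3e-06). The table lists 5 pseudogenes named after this isomerase, which held 110 counts in all over the 12 libraries against 7717 for Idi1.

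Acat2, which joins acetyl-CoA units at the head of the pathway, stood at 60.6, 66.98 and 56.2 CPM in unstimulated wildtype and at 8.38, 7.76 and 10.6 CPM after stimulation. Its iNOS KO libraries held 48.9, 53.5 and 54.7 CPM before and 34.3, 35.7 and 30.02 CPM after stimulation. The wildtype fall was 6.87-fold and the iNOS KO fall 1.57-fold, and the interaction was 2.13 ± 0.15 (SE, adjusted p = 1.2e-08). The kinases Mvk and Pmvk fell by 2.37-fold and 3.84-fold in wildtype. In iNOS KO, Pmvk fell 1.48-fold and Mvk did not pass the test (log2 fold change -0.14 ± 0.11 SE, adjusted p = 0.33). Without replicate B of stimulated iNOS KO, the Mvk value was -0.27 (adjusted p = 0.022). Mvd, the decarboxylase that follows them, was the exception. It fell by 1.48-fold in wildtype and 1.48-fold in iNOS KO, and the stimulated libraries overlapped between genotypes (51.7, 44.6 and 42.7 against 37.4, 44.9 and 35.8 CPM, -0.24 ± 0.10 SE, adjusted p = 0.053). That difference, lower in iNOS KO, passed under 6 of the alternatives run. Its adjusted p was 0.048 with DESeq2 in place of edgeR, 0.046 with DESeq2 size factors, 0.024 with filterByExpr, 0.043 with no filter, 0.036 without wildtype stimulated replicate C and 0.00094 without replicate B of stimulated iNOS KO, where the log2 difference was -0.34.

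Fdps, the farnesyl pyrophosphate synthase, showed the largest log2 difference of all 36 between stimulated genotypes (3.84 ± 0.44 SE, adjusted p = 1.4e-06), but on few counts. It had 119, 104 and 97 counts in the unstimulated wildtype libraries and 1, 5 and 0 counts after stimulation. It had 108, 124 and 106 counts in unstimulated and 36, 27 and 32 counts in stimulated iNOS KO libraries. The ratio of iNOS KO to wildtype after stimulation was 15.0, with a 95% interval of 6.63 to 41.8 that covers counting error only. Fdft1, the squalene synthase, stood at 60.1, 64.2 and 65.9 CPM in unstimulated and 14.5, 17.6 and 15.4 CPM in stimulated wildtype libraries. In iNOS KO it stood at 56.7, 54.4 and 53.8 CPM before and 35.7, 47.5 and 33.1 CPM after stimulation. The stimulated iNOS KO libraries lay between the stimulated wildtype and the unstimulated ones, with an interaction of 1.49 ± 0.16 (SE, adjusted p = 1.3e-06). Fdft1 overlaps Ctsb on the opposite strand over 774 bases, and Ctsb held 1084653 counts against 9315 for Fdft1, so that reads of Ctsb counted without strand cannot be told apart from those of Fdft1.

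**Figure D2:**
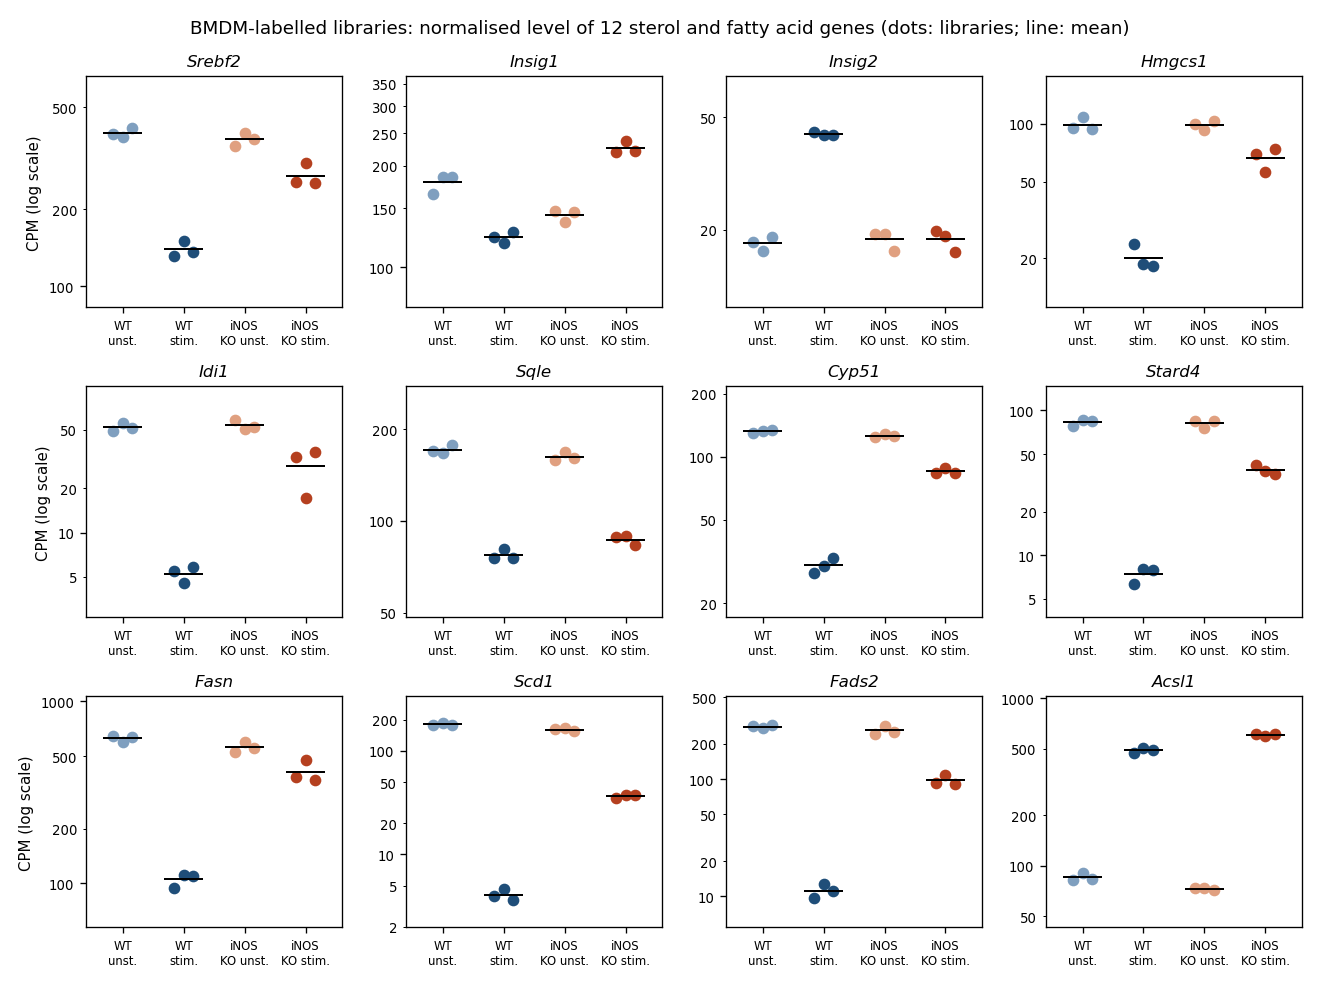
Normalised level (CPM, log scale, y axis) of 12 genes in each of the 12 BMDM-labelled libraries (x axis, 4 groups of 3; dots are libraries and lines group means). The stimulated wildtype libraries are the lowest for 10 of the 12 genes, the highest for Insig2, and between the others for Acsl1.

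From squalene to the finished sterol, 9 of the 10 enzymes fell in wildtype and 9 of the 10 were higher in stimulated iNOS KO, with a wide range of sizes. Of all genes, 28.5% were called lower in the first comparison and 24.2% higher in the second. Cyp51, the lanosterol demethylase, stood at 131, 134 and 134 CPM in unstimulated and 27.8, 30.2 and 32.9 CPM in stimulated wildtype libraries. The corresponding iNOS KO levels were 125, 129 and 126 CPM before and 83.9, 88.97 and 83.9 CPM after stimulation. The stimulated groups were far apart relative to their spread, with a log2 difference of 1.498 ± 0.07 (SE, adjusted p = 2.7e-11). Lss, which closes the sterol ring, went from 116, 113 and 122 to 29.7, 34.4 and 33.00 CPM in wildtype. It went from 101, 109 and 99.1 to 63.8, 80.1 and 65.2 CPM in iNOS KO. Its interaction was 1.29 ± 0.13 (SE, adjusted p = 4.1e-07), and no stimulated library of one genotype reached the range of the other.

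Sqle, the squalene epoxidase and the other rate-controlling step of the branch, behaved unlike its neighbours. It fell from 169, 167 and 177 to 75.7, 80.95 and 75.5 CPM in wildtype. It fell from 158, 168 and 161 to 88.6, 88.97 and 83.1 CPM in iNOS KO. Stimulated iNOS KO libraries exceeded stimulated wildtype ones by 1.12-fold only (log2 difference 0.17 ± 0.06 SE, adjusted p = 0.039). That call was lost with DESeq2 (adjusted p = 0.057), and the interaction of 0.24 ± 0.09 (SE, adjusted p = 0.043) was lost with it too (adjusted p = 0.053). Leaving out any 1 of 5 libraries also ended the first call, and leaving out any 1 of 8 the second.

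Msmo1, the C4-methyl sterol oxidase, stood at 157, 151 and 159 CPM in unstimulated and 64.7, 69.95 and 74.2 CPM in stimulated wildtype, and at 152, 149 and 147 CPM before and 109, 108 and 114 CPM after stimulation in iNOS KO. The stimulated groups did not overlap (0.66 ± 0.07 SE, adjusted p = 2.4e-07). Hsd17b7, which acts after Msmo1 and Nsdhl in removing the C4 methyl groups, differed by 1.68 ± 0.08 (SE, adjusted p = 4.5e-11) between stimulated genotypes, and Nsdhl by 0.98 ± 0.08 (SE, adjusted p = 2.0e-08). The late enzymes moved less. Sc5d and Dhcr7 fell by 1.72-fold and 2.09-fold in wildtype and were 1.39-fold and 1.22-fold higher in stimulated iNOS KO, and the Dhcr7 call was lost when any 1 of 3 libraries was left out. Ebp, the sterol isomerase, was the 1 sterol enzyme that rose in iNOS KO, from 30.3, 35.98 and 34.8 to 45.7, 52.3 and 48.2 CPM (0.53 ± 0.10 SE, adjusted p = 0.00025). In wildtype it stood at 37.5, 29.9 and 37.98 CPM before and 32.9, 36.6 and 35.2 CPM after stimulation, and the ranges overlapped. Tm7sf2, a sterol reductase with 4.65 to 9.16 CPM in all 12 libraries, did not pass the test between stimulated genotypes (0.42 ± 0.18 SE, adjusted p = 0.070). The difference was 0.57 (adjusted p = 0.015) without replicate A of stimulated iNOS KO, 0.17 (adjusted p = 0.42) without replicate B, and passed at adjusted p = 0.038 with no filter. It overlaps Vps51 on the same strand.

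Stard4, a carrier of cholesterol between membranes, stood at 78.3, 86.05 and 84.00 CPM in unstimulated wildtype libraries and at 6.37, 8.04 and 7.903 CPM after stimulation. The iNOS KO libraries held it at 84.6, 76.1 and 84.95 CPM before and 41.9, 38.1 and 36.2 CPM after stimulation. Its 11.1-fold fall in wildtype was a 2.12-fold fall in iNOS KO, and the interaction of 2.39 ± 0.13 (SE, adjusted p = 3.8e-10) was among the largest of the set. Ch25h, which makes 25-hydroxycholesterol, moved the other way from the synthesis genes. It had 0 counts in all 6 unstimulated libraries, 4, 3 and 7 counts in stimulated wildtype and 51, 32 and 63 counts in stimulated iNOS KO. Against a floor of 3 counts per library, its level in stimulated iNOS KO was at least 21.2-fold higher than in unstimulated iNOS KO. In wildtype the same bound was 1.96-fold, on 14 counts in all. Stimulated iNOS KO exceeded stimulated wildtype at adjusted p = 1.5e-05, with a ratio of 9.86 and a 95% counting interval of 5.69 to 18.5. No interaction can be estimated from 0 counts in both unstimulated groups. The gene overlaps the long non-coding RNA Gm26902 on the opposite strand, which held 657 counts against 160 for Ch25h.

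The transcripts of fatty acid synthesis fell as those of sterol synthesis did. Fasn, the fatty acid synthase, stood at 645, 599 and 632 CPM in unstimulated and 94.6, 112 and 110.2 CPM in stimulated wildtype libraries. In iNOS KO it stood at 527, 598 and 555 CPM before and 382, 476 and 368 CPM after stimulation. The wildtype fall of 5.93-fold was a 1.37-fold fall in iNOS KO, with an interaction of 2.11 ± 0.13 (SE, adjusted p = 1.5e-09). Acaca, the acetyl-CoA carboxylase that supplies malonyl-CoA, went from 124, 116 and 119.7 to 25.8, 31.4 and 29.5 CPM in wildtype. It went from 103, 120.3 and 113 to 78.3, 77.3 and 68.99 CPM in iNOS KO. The stimulated groups did not overlap, and the interaction was 1.47 ± 0.12 (SE, adjusted p = 4.4e-08).

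The 3 elongases differed in size of response. Elovl6, which extends palmitate to stearate, stood at 42.1, 45.03 and 41.7 CPM in unstimulated wildtype and at 3.53, 4.46 and 3.397 CPM after stimulation. Its level in iNOS KO was 48.2, 41.1 and 46.3 CPM before and 15.2, 13.3 and 15.8 CPM after stimulation. It fell in both genotypes, 11.3-fold and 3.05-fold, and the interaction was 1.89 ± 0.16 (SE, adjusted p = 5.9e-08). Elovl5, for polyunsaturated chains, fell 2.64-fold and 1.62-fold, with an interaction of 0.71 ± 0.09 (SE, adjusted p = 6.1e-06). Elovl1, for very long saturated chains, moved least of the 9 fatty acid branch genes, with 1.24-fold less in stimulated wildtype and a difference between stimulated genotypes of 0.11 ± 0.06 (SE, adjusted p = 0.15) that did not pass. It overlaps Cdc20, a gene of cell division, over 53 bases on the opposite strand.

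The desaturases Scd1 and Fads2 had the largest falls of the set in wildtype BMDM-labelled cells after leaving out Fdps. Scd1, a stearoyl-CoA desaturase, stood at 176, 185 and 179 CPM in unstimulated wildtype libraries and at 3.95, 4.66 and 3.605 CPM after stimulation, a 44.1-fold fall (log2 fold change -5.46 ± 0.09 SE, adjusted p = 1.7e-17). The corresponding iNOS KO levels were 162, 166 and 155 CPM before and 35.2, 37.6 and 37.6 CPM after stimulation, a 4.37-fold fall (-2.13 ± 0.07 SE, adjusted p = 1.5e-13). The stimulated iNOS KO libraries lay between the unstimulated and the stimulated wildtype ranges, and the interaction was 3.34 ± 0.12 (SE, adjusted p = 1.3e-12). Fads2, the delta-6 desaturase, gave the same order. It went from 282, 271 and 288 to 9.63, 12.6 and 11.02 CPM in wildtype. It went from 244, 285 and 253 to 92.3, 109 and 91.7 CPM in iNOS KO, with an interaction of 3.24 ± 0.14 (SE, adjusted p = 1.3e-11). Fads1, the delta-5 desaturase, stood at 377, 375 and 386 CPM before and 67.9, 72.7 and 76.1 CPM after stimulation in wildtype and at 342, 385 and 353 CPM before and 166, 190.2 and 166 CPM after stimulation in iNOS KO (1.34 ± 0.10 SE, adjusted p = 1.7e-08).

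Scd2 was by level per length the highest gene of the set, at 268 CPM per kilobase in unstimulated wildtype against 85.2 for the next, Fads2. It fell from 1430, 1464 and 1499 to 178, 208 and 193 CPM in wildtype. It fell from 1236, 1305 and 1233 to 281, 319.8 and 289.5 CPM in iNOS KO. The stimulated groups did not overlap. The fall was 7.57-fold and 4.24-fold, and the interaction (0.84 ± 0.09 SE, adjusted p = 2.0e-06) was smaller than that of Scd1.

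Of the 2 acyl-CoA synthetases, which activate free fatty acids, Acsl1 rose and Acsl3 fell. Acsl1 rose from 82.3, 90.3 and 83.3 to 471, 505 and 492 CPM in wildtype. It rose from 73.95, 73.8 and 71.6 to 614, 591 and 610.1 CPM in iNOS KO. The rise was 5.73-fold and 8.28-fold, with an interaction of 0.53 ± 0.08 (SE, adjusted p = 6.9e-05), and the 2 stimulated groups did not overlap. Acsl3 stood at 48.2, 53.9 and 47.02 CPM before and 34.6, 36.6 and 41.3 CPM after stimulation in wildtype and at 51.4, 50.1 and 49.2 CPM before and 34.5, 23.7 and 37.7 CPM after stimulation in iNOS KO. It fell in both genotypes, and the stimulated groups overlapped (-0.23 ± 0.13 SE, adjusted p = 0.16). Their difference was -0.36 (adjusted p = 0.030) without replicate C of stimulated iNOS KO and -0.054 (adjusted p = 0.62) without replicate B. It overlaps Utp14b on the same strand over 13475 bases.

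Set side by side, the sterol branch (the 18 enzymes from Acat2 to Dhcr7) and the fatty acid branch (the 9 genes of synthesis, elongation and desaturation) moved alike in direction. Stimulation changed the sterol branch by a median of -1.67 on the log2 scale in wildtype and -0.56 in iNOS KO. The fatty acid branch changed by -2.57 and -1.05. The median difference between stimulated genotypes was 1.04 for the sterol branch and 1.37 for the fatty acid branch. In iNOS KO, 16 of 18 and 8 of 9 genes were called higher, where 24.2% of all genes were. In raw counts, the fatty acid branch took 0.386 to 0.389% of unstimulated and 0.0479 to 0.0517% of stimulated wildtype libraries, and 0.111 to 0.129% of stimulated iNOS KO libraries. The sterol branch took 0.142 to 0.144%, 0.0372 to 0.0381% and 0.0708 to 0.0736% of the same groups. After normalisation the fatty acid branch summed to 3348 to 3443, 561.5 to 628.4 and 1246 to 1447 CPM in these groups. The sterol branch summed to 1238 to 1262, 440.6 to 462.5 and 797.5 to 828.7 CPM. The 2 branches were described and not tested against each other.

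Genes of the same pathways outside the 36 were counted the same way, where 24.2% of all genes were called higher and 24.2% lower in stimulated iNOS KO. Of 16 other sterol genes tested from a list of 17 (among them Soat1, Npc1 and Lipa), 7 were called higher and 4 lower in iNOS KO than in wildtype after stimulation, with a median of 0.09. Of 18 other fatty acid genes tested from 21 (among them Acly, Me1 and Acss2), 10 were higher and 2 lower, with a median of 0.46. Of 7 LXR and oxysterol genes tested from 8, which answer to sterol excess and include Abca1 and Abcg1, 3 were higher and 4 lower, with a median of -0.28.

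Most genes of cell division moved in the direction of the set in these cells. Of 10 proliferation genes, among them Mki67 and Top2a, 9 fell and 1 rose in wildtype on stimulation, with a median log2 fold change of -5.75. In iNOS KO 9 fell and 1 rose too, with a median of -0.63. After stimulation 9 were higher in iNOS KO than in wildtype, with a median of 5.15. Of all genes, 28.5% and 24.6% were called lower on stimulation in wildtype and iNOS KO, and 24.2% higher in stimulated iNOS KO. The summed level of the 10 genes was 2491 to 2571 CPM in unstimulated wildtype, 352 to 385 CPM in stimulated wildtype and 1511 to 1803 CPM in stimulated iNOS KO. Their part in the results on the 36 genes was not tested. The study states that BMDM do not proliferate in either genotype or state. It also states that nitric oxide made on stimulation inhibits the proliferation of RAW264.7 cells. Which of these cells the libraries came from was not tested.

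Without stimulation, few of these genes were called between the genotypes of the BMDM-labelled experiment. Of the 36 genes, 0 were called higher in iNOS KO and 3 lower, where 1.88% of all genes were called higher and 4.09% lower. The 3 were Dhcr7 (56.3, 61.9 and 66.8 CPM in wildtype against 47.6, 42.5 and 43.7 CPM, -0.47 ± 0.10 SE, adjusted p = 0.0075), Insig1 (-0.32 ± 0.07 SE, adjusted p = 0.0066) and Acsl1 (-0.22 ± 0.06 SE, adjusted p = 0.032). The Dhcr7 groups did not overlap, but its call was lost without replicate C of unstimulated wildtype (adjusted p = 0.059). The Acsl1 call was lost when any library of the 2 unstimulated groups was left out (adjusted p = 0.058 to 0.17) and with no filter (0.064). The median of the set was -0.10 against -0.01 over all genes. The count changed with the libraries in the fit, as did the share of all genes called, which was 5.98% with all libraries. It was 14 when the 2 groups were fitted alone (35 genes tested), where 16.7% of all genes were called. It was 12 without replicate B of stimulated iNOS KO, against 12.8% of all genes, and 1 without replicate C of unstimulated wildtype, against 3.70%. Scd2 was among the genes whose call changed. Its log2 difference was -0.22 ± 0.07 (SE, adjusted p = 0.063) with all libraries and passed at adjusted p = 0.0027 without that iNOS KO library.

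In RAW264.7 cells stimulation lowered most of the set too. The 36 genes took 0.571 to 0.672% of raw counts in unstimulated wildtype libraries and 0.151 to 0.194% after stimulation. In wildtype, 29 fell, 2 rose and 5 did not pass, where 19.2% of all genes were called lower and 18.5% higher, and the median log2 fold change was -1.57 against -0.03 over all genes. In Akr1a1 KO cells 32 fell, 1 rose and 3 did not pass, where 19.4% of all genes were called lower and 19.8% higher, and the median was -1.91 against 0.02. Leaving out the unstimulated replicate B whose title disagrees with its treatment left 1 library in that group. No count of calls is given for those fits. Of the proliferation genes all 10 fell in both genotypes, with medians of -6.19 and -6.67.

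**Figure D3:**
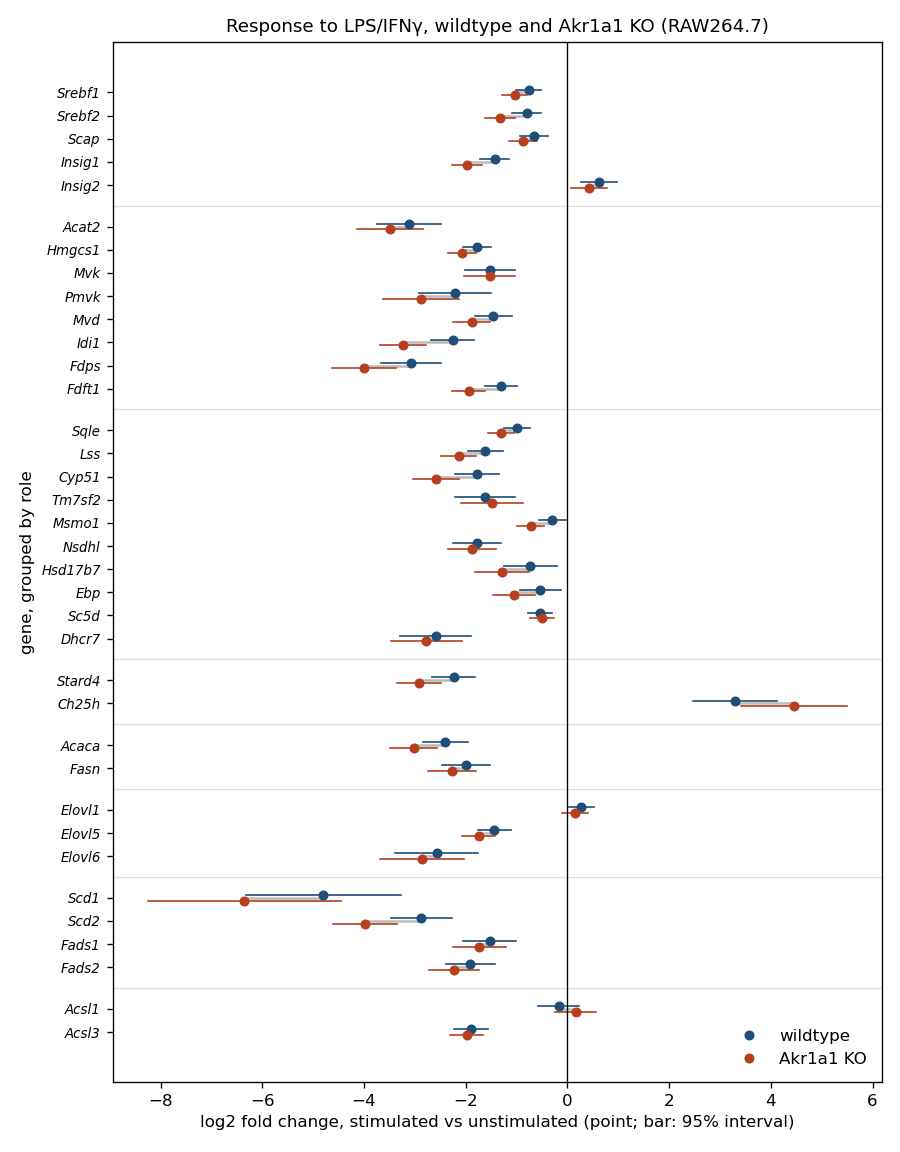
Log2 fold change of stimulated against unstimulated RAW264.7 libraries (x axis) for the 36 genes grouped by role (y axis), in wildtype (blue) and Akr1a1 KO (red), each from 2 against 2 libraries, with 95% intervals. Most points of both colours lie left of 0 and the intervals of most pairs overlap, and Insig2, Ch25h and Elovl1 lie to the right in both genotypes.

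Among the factors and sensors, Srebf2 stood at 384 and 381 CPM in unstimulated and 230.5 and 208 CPM in stimulated wildtype RAW264.7 libraries, and at 449 and 361 CPM before and 174 and 151 CPM after stimulation in Akr1a1 KO. Srebf1 stood at 198 and 179.6 CPM before and 109 and 114 CPM after stimulation in wildtype and at 179 and 185 CPM before and 81.8 and 95.9 CPM after stimulation in Akr1a1 KO. Both fell in both genotypes. The log2 fold changes of Srebf2 were -0.80 ± 0.15 (SE, adjusted p = 0.0032) in wildtype and -1.32 ± 0.15 (SE, adjusted p = 0.00024) in Akr1a1 KO. Those of Srebf1 were -0.76 ± 0.12 (SE, adjusted p = 0.0016) and -1.03 ± 0.12 (SE, adjusted p = 0.00032). Scap fell from 60.9 and 62.8 to 43.6 and 34.95 CPM in wildtype and from 59.1 and 63.2 to 31.5 and 35.4 CPM in Akr1a1 KO. Insig1 fell from 129.7 and 119.7 to 45.3 and 47.3 CPM in wildtype (-1.43 ± 0.15 SE, adjusted p = 0.00015) and from 125 and 114 to 34.3 and 26.4 CPM in Akr1a1 KO (-1.97 ± 0.15 SE, adjusted p = 3.2e-05). Insig2 rose from 28.6 and 28.2 to 41.05 and 46.7 CPM in wildtype (0.63 ± 0.18 SE, adjusted p = 0.025), so the opposite course of the INSIG pair was present here too, although that call was lost when any 1 of 3 libraries was left out. In Akr1a1 KO, Insig2 stood at 32.1 and 39.5 CPM before and 40.7 and 55.1 CPM after stimulation, which did not pass (0.42 ± 0.18 SE, adjusted p = 0.10).

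The enzymes to squalene all fell in both genotypes, where 19.2% of all genes were called lower in wildtype and 19.4% in Akr1a1 KO. Hmgcs1 went from 156 and 134 to 45.7 and 38.8 CPM in wildtype and from 155 and 141 to 36.9 and 33.8 CPM in Akr1a1 KO. Idi1 went from 77.6 and 79.3 to 20.4 and 12.6 CPM and from 85.3 and 75.8 to 9.11 and 8.04 CPM. Fdft1 went from 70.02 and 58.5 to 25.2 and 26.7 CPM and from 76.97 and 65.3 to 20.5 and 16.6 CPM. For Hmgcs1 and Idi1, both stimulated Akr1a1 KO libraries lay under both stimulated wildtype ones, as they did for Fdft1. Of the 36 genes, 0 were called between these stimulated genotypes, and the share of all genes with such a separation was not counted. Of the later enzymes, Sqle went from 246 and 209.9 to 108 and 121 CPM in wildtype and from 254 and 228 to 99.5 and 94.99 CPM in Akr1a1 KO. Cyp51 went from 167 and 139 to 53.3 and 35.9 CPM and from 169.6 and 133 to 27.8 and 22.7 CPM. Lss went from 139 and 135 to 49.8 and 39.7 CPM and from 152 and 128 to 36.05 and 27.4 CPM. All 3 fell in both genotypes. Msmo1 stood at 151 and 142 CPM before and 112 and 126 CPM after stimulation in wildtype, which did not pass (-0.30 ± 0.14 SE, adjusted p = 0.12), and at 184 and 153 CPM before and 108 and 96.8 CPM after stimulation in Akr1a1 KO, which did (-0.72 ± 0.14 SE, adjusted p = 0.0035). Hsd17b7 and Ebp likewise did not pass in wildtype (-0.73 ± 0.26 SE, adjusted p = 0.060, or 0.042 with the replicate letter as a block, and -0.54 ± 0.21 SE, adjusted p = 0.074). Without wildtype stimulated replicate A both passed, at adjusted p = 0.0018 and 0.019. Without replicate B their values were -0.29 and -0.24 (adjusted p = 0.25 and 0.38).

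Ch25h rose from 5 and 16 counts in unstimulated to 50 and 58 counts in stimulated wildtype libraries (3.29 ± 0.42 SE, adjusted p = 0.00048). In Akr1a1 KO it rose from 1 and 2 to 24 and 29 counts. It was the 1 gene of the set that rose in all 4 comparisons of stimulated with unstimulated cells. In wildtype BMDM-labelled cells that rise rested on 14 counts in all.

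The fatty acid branch had the larger median fall in RAW264.7 cells as well. Fasn went from 771 and 804 to 249.7 and 145 CPM in wildtype RAW264.7 and from 868 and 781 to 179.7 and 163 CPM in Akr1a1 KO. Acaca went from 204 and 189 to 46.03 and 28.5 CPM and from 247 and 207 to 25.3 and 30.5 CPM. Elovl6 went from 115 and 86.6 to 25.4 and 8.78 CPM and from 77.7 and 81.5 to 12.1 and 9.79 CPM. In each, stimulated wildtype replicate A lay above replicate B, and replicate B lay within or under the Akr1a1 KO range. Fads1 went from 252 and 228 to 108 and 59.04 CPM and from 225 and 203 to 55.4 and 73.2 CPM, and Fads2 from 159 and 135 to 50.7 and 27.7 CPM and from 126 and 122 to 26.4 and 26.6 CPM. The wildtype median of the fatty acid branch was -1.997, and it was -2.38 without wildtype stimulated replicate A and -1.61 without replicate B. The sterol branch median of -1.62 was -1.42 without replicate B. In Akr1a1 KO the medians were -2.27 for the fatty acid branch and -1.91 for the sterol branch.

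Scd1 varied widely between the RAW264.7 libraries. It stood at 243 and 138 CPM in unstimulated and 12.6 and 1.52 CPM in stimulated wildtype. In Akr1a1 KO it stood at 60.2 and 36.5 CPM before and 0.536 and 0.628 CPM after stimulation. The Akr1a1 KO libraries lay under the wildtype ones both before and after stimulation, with log2 differences of -1.98 ± 0.67 (SE, adjusted p = 0.44) and -3.54 ± 1.02 (SE, adjusted p = 0.26) that did not pass. The second passed with DESeq2 (adjusted p = 0.028) and without wildtype stimulated replicate B (adjusted p = 0.031), and it was -1.4 (adjusted p = 0.4997) without replicate A. The first passed at adjusted p = 0.048 without wildtype stimulated replicate A. Scd2 stood at 1461 and 1251 CPM before and 248 and 123 CPM after stimulation in wildtype and at 1635 and 1510 CPM before and 93.7 and 105 CPM after stimulation in Akr1a1 KO, a stimulated difference of -0.90 ± 0.29 (SE, adjusted p = 0.31). Without wildtype stimulated replicate B it was -1.34 (adjusted p = 0.025), and without replicate A -0.34 (adjusted p = 0.43).

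Acsl1, which rose in the BMDM-labelled cells, did not pass here. It stood at 47.9 and 55.96 CPM before and 56.4 and 36.02 CPM after stimulation in wildtype RAW264.7 (-0.17 ± 0.21 SE, adjusted p = 0.55, and -0.47 with adjusted p = 0.041 without wildtype stimulated replicate A) and at 53.4 and 52.95 CPM before and 55.3 and 63.7 CPM after stimulation in Akr1a1 KO (0.16 ± 0.21 SE, adjusted p = 0.57). Acsl3 fell from 67.7 and 58.4 to 16.4 and 17.4 CPM in wildtype and from 70.3 and 80.8 to 16.8 and 21.6 CPM in Akr1a1 KO, by 3.72-fold and 3.94-fold. Elovl1 did not pass in either genotype (0.28 ± 0.13 SE, adjusted p = 0.12 and 0.15 ± 0.13 SE, adjusted p = 0.40).

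**Figure D4:**
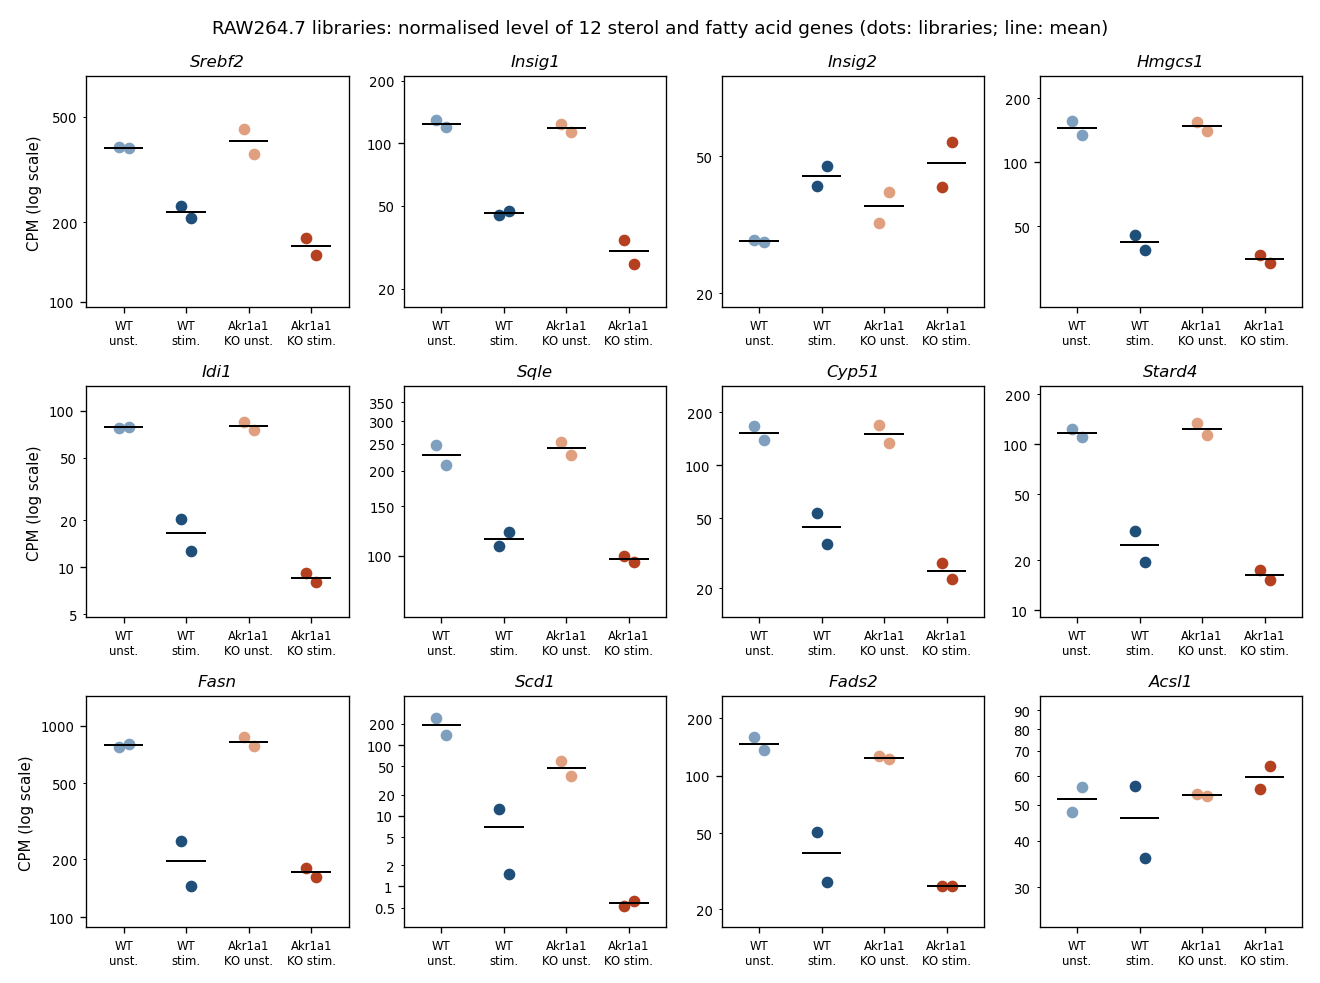
Normalised level (CPM, log scale, y axis) of 12 genes in each of the 8 RAW264.7 libraries (x axis, 4 groups of 2; dots are libraries and lines group means). For 10 of the 12 genes the stimulated libraries of both genotypes lie under all unstimulated ones, and the 2 stimulated wildtype libraries lie apart for Scd1.

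Between Akr1a1 KO and wildtype RAW264.7 cells no gene of the 36 passed at adjusted p under 0.05. Among stimulated libraries, 0 genes were called higher and 0 lower with edgeR, where 0.0869% of all genes were called higher and 0.199% lower. At an unadjusted p under 0.05 there were 13, all lower in Akr1a1 KO, where 11.1% of all genes had such a p and 6.1% were also lower. With DESeq2 3 were called (Idi1, Scd1 and Insig1), also lower, where it called 3.56% of all genes. In all, 32 of the 36 log2 differences were negative, against 48.4% of all genes, with a median of -0.39 against 0.005 over all genes and medians of -0.35 for the sterol branch and -0.45 for the fatty acid branch. The fatty acid branch median was -0.76 without wildtype stimulated replicate B and -0.09 without replicate A, so that leaving out 1 library moved it by more than 1.5 times. The smallest adjusted p was that of Idi1, with a log2 difference of -0.94 ± 0.22 (SE, adjusted p = 0.18) and a 95% interval of -1.37 to -0.50. It was -1.26 (adjusted p = 0.028) without wildtype stimulated replicate B and -0.58 (adjusted p = 0.1996) without replicate A, and the Cyp51 value moved from -0.82 to -0.53 without replicate A. For Insig1 the interval was -0.90 to -0.32 and for Cyp51 -1.25 to -0.39. For Hmgcs1 it was -0.53 to 0.02 and for Fasn -0.66 to 0.25. These intervals do not show that the genotypes were alike. The summed macrophage markers stood at 11790 to 12010 CPM in stimulated wildtype and 4949 to 8813 CPM in stimulated Akr1a1 KO, and the summed neutrophil markers, of which 1 of 8 exceeded a mean of 10 CPM in either group, at 121 to 145 and 248 to 420 CPM. The 10 proliferation genes had a median log2 difference of -0.04 between the stimulated genotypes. The part of the markers and of these genes in the differences was not tested.

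Among unstimulated RAW264.7 libraries, 0 genes were called in either direction with edgeR and with DESeq2. Of all genes, edgeR called 0.230% higher and 0.353% lower, and DESeq2 called 2.51%. With edgeR, 2 genes of the set had an unadjusted p under 0.05, as did 8.04% of all genes. The median was 0.03 against -0.02, and 15 of the 36 differences were negative. The response to stimulation differed between these genotypes for 0 genes with both tools. Of all genes, edgeR called 0.00511% more positive and 0.0153% more negative, and DESeq2 called 0.728%. With edgeR, 7 genes of the set had an unadjusted p under 0.05, as did 5.51% of all genes.

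The 2 wildtype responses share no library, and they were set side by side as a description. Of the 36 genes, 29 were called lower and 2, Insig2 and Ch25h, higher in both experiments, and 34 had the same sign. Taken singly, the 2 wildtype comparisons called 28.5% and 19.2% of all genes lower and 32.4% and 18.5% higher. The share of all genes called in both was not counted. The log2 fold changes correlated across genes with Pearson's r = 0.859 and Spearman's rho = 0.771 (n = 36 genes, which are not independent replicates). In all, 26 genes were called lower in each of the 4 comparisons of stimulated with unstimulated cells. Taken singly, these called 19.2 to 28.5% of all genes lower, and the share called lower in all 4 was not counted. The clearest departure was Acsl1, 5.73-fold higher in the BMDM-labelled cells and not called in RAW264.7 cells. By the labels, the cells and the IFNγ dose both differ between the experiments and cannot be told apart, while the study's text describes RAW264.7 cells for both.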

How the data were processed

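Poly(A) libraries of 12 BMDM-labelled and 8 RAW264.7 samples were sequenced, base calls were made with CASAVA, low-quality and adaptor reads were removed, and reads were aligned to mm10 with STAR, per the labels, the submitters' processing notes and the study's methods. The authors deposited raw counts per gene in 1 table per experiment. The counter, the versions and the use of strand are not given in the sources used here. Groups came from the labels. Where title and treatment field disagreed (2 RAW264.7 libraries), the treatment field was used. Nos2 did not exceed 54.7 CPM in the 4 unstimulated RAW264.7 libraries, and its lowest stimulated level was 4155 CPM.

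The study's methods name DESeq2. Here edgeR 4.0.16 in R 4.3.3 was run on each table, with TMM normalisation, genes of at least 10 counts in total, 1 mean per group, all libraries of the experiment and the quasi-likelihood test. Benjamini-Hochberg adjustment covered all genes tested, with a threshold of 0.05. SEs and 95% intervals use 1.96 SEs. Where no separate animals or cultures stand behind the libraries, p-values measure only the spread between these libraries, which may be technical. No 2 libraries held identical counts. The labels state no pairing. Among the BMDM-labelled groups, libraries with the same replicate letter deviated together from their group means in every pair only between stimulated and unstimulated iNOS KO (correlations 0.404, 0.497 and 0.121). In RAW264.7 they did so between stimulated and unstimulated wildtype (0.438) and Akr1a1 KO (0.103), where groups of 2 give both letters the same value. For these comparisons the fit with the letter as a block is given beside any call it changed. The script was checked on simulated data. Alternatives were DESeq2 1.42.0, its size factors in edgeR, other filters, fewer groups, a replicate block, a limit of 1 on the log2 fold change and leaving out each library.

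The members, the gene lists and the genes named were chosen with earlier results of these data known. All 36 members were counted in every comparison, and values in every library were given for the factors and sensors, the main enzymes of each role and those with the largest changes. The tables name no build for their gene positions, so the promoters come from RefSeq for GRCm38.p6. Some items are not reported here.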

Additional observations from a re-analysis of the deposited data

Results flagged for a closer look

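In 31 of the 36 genes the response to stimulation differed between wildtype and iNOS KO BMDM-labelled cells by the interaction term of edgeR's quasi-likelihood test, and each is given here as iNOS KO response minus wildtype response on the log2 scale. Insig2 alone was negative, at -1.28. Among the other factors and sensors the values were 0.59 for Srebf1, 1.04 for Srebf2 and 1.19 for Insig1. From acetyl-CoA to squalene they were 2.13 for Acat2, 1.74 for Hmgcs1, 1.11 for Mvk, 1.38 for Pmvk, 2.39 for Idi1, 3.91 for Fdps on few counts and 1.49 for Fdft1. From squalene to the sterol they were 0.24 for Sqle, 1.29 for Lss, 1.57 for Cyp51, 0.72 for Msmo1, 1.15 for Nsdhl, 1.54 for Hsd17b7, 0.54 for Ebp, 0.53 for Sc5d and 0.76 for Dhcr7, with 2.39 for the carrier Stard4. Among the fatty acid genes they were 1.47 for Acaca, 2.11 for Fasn, 0.30 for Elovl1, 0.71 for Elovl5, 1.89 for Elovl6, 3.34 for Scd1, 0.84 for Scd2, 1.34 for Fads1, 3.24 for Fads2 and 0.53 for Acsl1. The largest well-counted values belonged to Scd1 and Fads2, and the smallest to Sqle and Elovl1. Dixon's check for a single outlying library was not run on these groups of 3 or 2.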

How the results depend on the processing

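No named gene that was called changed sign under any alternative run. Some calls of Sqle, Scap, Dhcr7, Sc5d, Acsl1 and Insig2 were lost under at least 1 of them. With an added limit of 1 on the absolute log2 fold change, 18 genes were called between stimulated iNOS KO and wildtype, 9 for stimulation in iNOS KO and 0 between the unstimulated genotypes. The share of all genes past that limit was not counted. Without that limit, the count between unstimulated genotypes was 14 with the 2 groups fitted alone and 1 to 12 with 1 library left out, where the share of all genes called moved too. With DESeq2, 3 genes (3.56% of all genes) were called between stimulated Akr1a1 KO and wildtype. Without a filter on counts the Akr1a1 counts were 8 when stimulated, 1 when unstimulated and 3 for the interaction, where the calls over all genes rose from 56 to 1015, from 114 to 846 and from 4 to 285. With 1 RAW264.7 library left out, its group held 1 library, and no count of calls is given for those fits. The fatty acid branch median ran from -0.761 to -0.091 between stimulated Akr1a1 genotypes, from -0.74 to 0.12 for their interaction and from -2.38 to -1.61 for wildtype stimulation, and the sterol branch median of the last from -1.75 to -1.42. A group left with 1 library was assumed to vary like the others.

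Among the genes named, signs turned only where no call was made. Ebp in wildtype BMDM-labelled cells was 0.003 with DESeq2, 0.003 with its size factors, 0.027 with filterByExpr and -0.11 to 0.051 with 1 library left out. The ranges with 1 library left out were -0.072 to 0.066 for Insig2 in iNOS KO, -0.56 to 0.22 for Fasn between stimulated Akr1a1 genotypes, -0.47 to 0.17 for Acsl1 in wildtype RAW264.7 cells and -2.47 to 0.56 for the Scd1 interaction with Akr1a1.

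Replicate letters were no stated pairing, and libraries with the same letter deviated from their group means with correlations of -0.52 to 0.50 (BMDM-labelled) and -0.17 to 0.44 (RAW264.7). With the letter as a block, 31, 4, 35, 31 and 30 genes were called for stimulated genotypes, unstimulated genotypes, wildtype, iNOS KO and interaction, and 32 and 33 for stimulation in wildtype RAW264.7 and Akr1a1 KO, with 0 for the other 3. Of all genes, 47.4%, 5.64%, 59.8%, 50.9% and 35% were called in the BMDM-labelled comparisons, in that order. In RAW264.7 the shares were 36.5% and 38.1% for stimulation, and 0.322%, 0.736% and 0.0102% for stimulated genotypes, unstimulated genotypes and interaction. The block ended the calls of Scap in iNOS KO (adjusted p = 0.054) and of Sqle between stimulated genotypes (0.053) and for the interaction (0.056), and made calls of Scd2 between unstimulated iNOS genotypes (0.033) and Hsd17b7 in wildtype RAW264.7 (0.042).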
